A study of Mus musculus with 6 samples.

Results

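The 10 genes described here are Mbnl2, Tug1, Kif5b, Kdm6b, Sdc4, Plpp3, Gas7, Sgpl1, Gpm6b and Actb, each picked because at least 1 of its probe sets read 2-fold or more lower in postnatal day 1 (PN1) testis of the consomic strain 129.MOLF-Chr19 than in the same tissue of 129/Sv. The platform annotation lists 36 probe sets with 1 of these symbols and no other, of 45101 on the array, and 3 of the 36 are Actb control probe sets. 1 further probe set lists Kdm6b beside a second gene and was left out. Of the 33 probe sets that are not controls, 29 exceeded the array median in 1 or both PN1 testis pools and 4 did not. 12 of the 29 were at least 2-fold lower in 129.MOLF-Chr19, and they are called the lower probe sets here. 8 genes had 1 lower probe set, while Mbnl2 and Sdc4 had 2 each, so that the fall of these genes was not confined to 1 probe set. The values of the PN1 pair chose these genes and are given as a description, without a test.

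Pooled RNA was hybridised to 6 Affymetrix mouse genome arrays, 1 for each of 6 groups. From both strains there was a pool of testes (male genital ridges) of E13.5, the embryonic stage, a pool of PN1 testes, and a pool of whole male E13.5 embryos. 129.MOLF-Chr19 carries chromosome 19 of the MOLF strain on the 129/Sv background and is known for frequent testicular germ cell tumors. Each E13.5 testis pool held 20 pairs of testes and each embryo pool 3 embryos, while PN1 testes were pooled from 12 pairs in 129/Sv and from 25 in 129.MOLF-Chr19. Per the labels, cDNA was primed from the poly(A) tail. No group has a replicate array, and strain and array cannot be told apart within a tissue. The p-values given below measure no spread between replicate pools. Their error is what strain and tissue leave over in the 4 E13.5 pools, averaged in part over all probe sets. This remainder may be technical, or it may hold a strain difference that varies by tissue. RefSeq (GRCm38.p6) places none of the 10 genes on chromosome 19: they lie on chromosomes 2 (Sdc4), 4 (Plpp3), 5 (Actb), 10 (Sgpl1), 11 (Tug1, Kdm6b and Gas7), 14 (Mbnl2), 18 (Kif5b) and X (Gpm6b).

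An expression array of this kind reads a transcript through short probes grouped into probe sets, most of them designed near the 3 prime end, and genes with long or alternative ends carry several probe sets. Probe sets of 1 gene can read different stretches of its transcripts, so a change in the amount of all transcripts moves each of them, whereas a change in 1 isoform or in the signal of 1 stretch need not. Probe sequences and positions were not used here, so the probe sets are not placed along the transcripts. The genes have no pathway in common. They encode an RNA splicing regulator (Mbnl2), a long noncoding RNA (Tug1), a motor protein (Kif5b), a histone demethylase (Kdm6b), membrane and lipid proteins (Sdc4, Plpp3, Sgpl1, Gpm6b) and proteins of the actin cytoskeleton (Gas7, Actb). In pooled tissue, fewer cells of a type and less RNA per cell cannot be told apart.

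The start of 6 of the 10 genes was found in a RefSeq promoter table of build GRCm38.p6, with 1 annotated start each, and Kif5b, Kdm6b, Gas7 and Actb had no entry. The 250 bases before the start are shown for Sdc4, the gene whose probe sets were both lower, and for Tug1, whose 3 probe sets did not move together. Sdc4 lies at chr2:164443189-164443438 and Tug1 at chr11:3648815-3649064, both on the minus strand, and capitals mark GGGCGG on either strand.
Sdc4: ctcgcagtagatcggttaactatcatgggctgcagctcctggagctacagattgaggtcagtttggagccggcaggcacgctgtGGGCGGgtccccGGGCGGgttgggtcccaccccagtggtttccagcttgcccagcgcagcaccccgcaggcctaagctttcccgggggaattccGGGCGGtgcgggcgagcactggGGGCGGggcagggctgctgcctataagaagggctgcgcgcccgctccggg
Tug1: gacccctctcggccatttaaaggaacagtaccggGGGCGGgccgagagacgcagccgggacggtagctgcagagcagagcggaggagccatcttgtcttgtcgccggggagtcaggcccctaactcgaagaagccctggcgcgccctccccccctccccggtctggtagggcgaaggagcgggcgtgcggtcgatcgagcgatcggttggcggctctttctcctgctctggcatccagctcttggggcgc
The letters GGGCGG, searched on both strands, were in 4 of the 6 windows (Mbnl2, Sdc4, Sgpl1 and Tug1) and in 32.7% of 32851 promoter windows of the same length. CCAAT was in 1 of the 6 (Mbnl2) against 33.8% of all, and TATAAA in 0 of the 6 against 12.4%. A match is a description of the letters and not a binding site.

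Array medians ran from 220.5 to 250.7. Intensities below are as deposited, on a linear scale, and log2 differences (129.MOLF-Chr19 minus 129/Sv) were taken after scaling each array to a common median of 233.6 and raising values under a common floor of 117 to it. Markers of the labelled tissues were present. All 4 Sertoli cell markers and the 3 measured Leydig cell markers were above the array median in the 4 testis pools, and the 2 liver markers in the embryo pools. In the PN1 pair the 4 embryonal carcinoma markers (Pou5f1, Nanog, Otx2 and Cer1) summed to a scaled intensity of 533 in 129/Sv and 2092 in 129.MOLF-Chr19, with 3 of 3 compared at least 2-fold higher and Nanog below the median in both. Over all probe sets 0.214% were 2-fold higher. Cer1 had the widest PN1 gap, at 89.4 and 1076 as deposited. In E13.5 testis the same 4 markers summed to 1329 and 1492, and Pou5f1 read 665 and 784, so these markers are not confined to consomic PN1 testis. The 3 measured germ cell markers summed to 3519 and 1465, with Dazl 1.97 lower on the log2 scale and Ddx4 (0.01) and Dppa3 (0.09) nearly level. Each marker was read on 1 probe set. Dazl and Cer1 have 2 each, and the second is not given here. The lower germ cell sum thus rests on 1 probe set of Dazl. The part of these cells in the values of the 10 genes was not tested.

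In the PN1 pair the lower probe sets of the 10 genes stood at −3.15 to −1.01 on the log2 scale (median −2.34). Over all probe sets with 1 symbol above the median, 372 of 20544, or 1.81%, were at least 2-fold lower in this pair, and of 4988 genes with several such probe sets 5.95% had at least 1. These are the values the genes were chosen on, and nothing is read from the comparison. The other 17 probe sets of the same 10 genes ran from −0.57 to 0.36, with a median of 0.02, 9 of them above 0 and none past 2-fold in either direction, where 0.214% of all probe sets were 2-fold higher. The values just inside and just outside 2-fold were −1.01 for a probe set of Sdc4 and −0.57 for one of Kif5b.

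**Figure D1:**
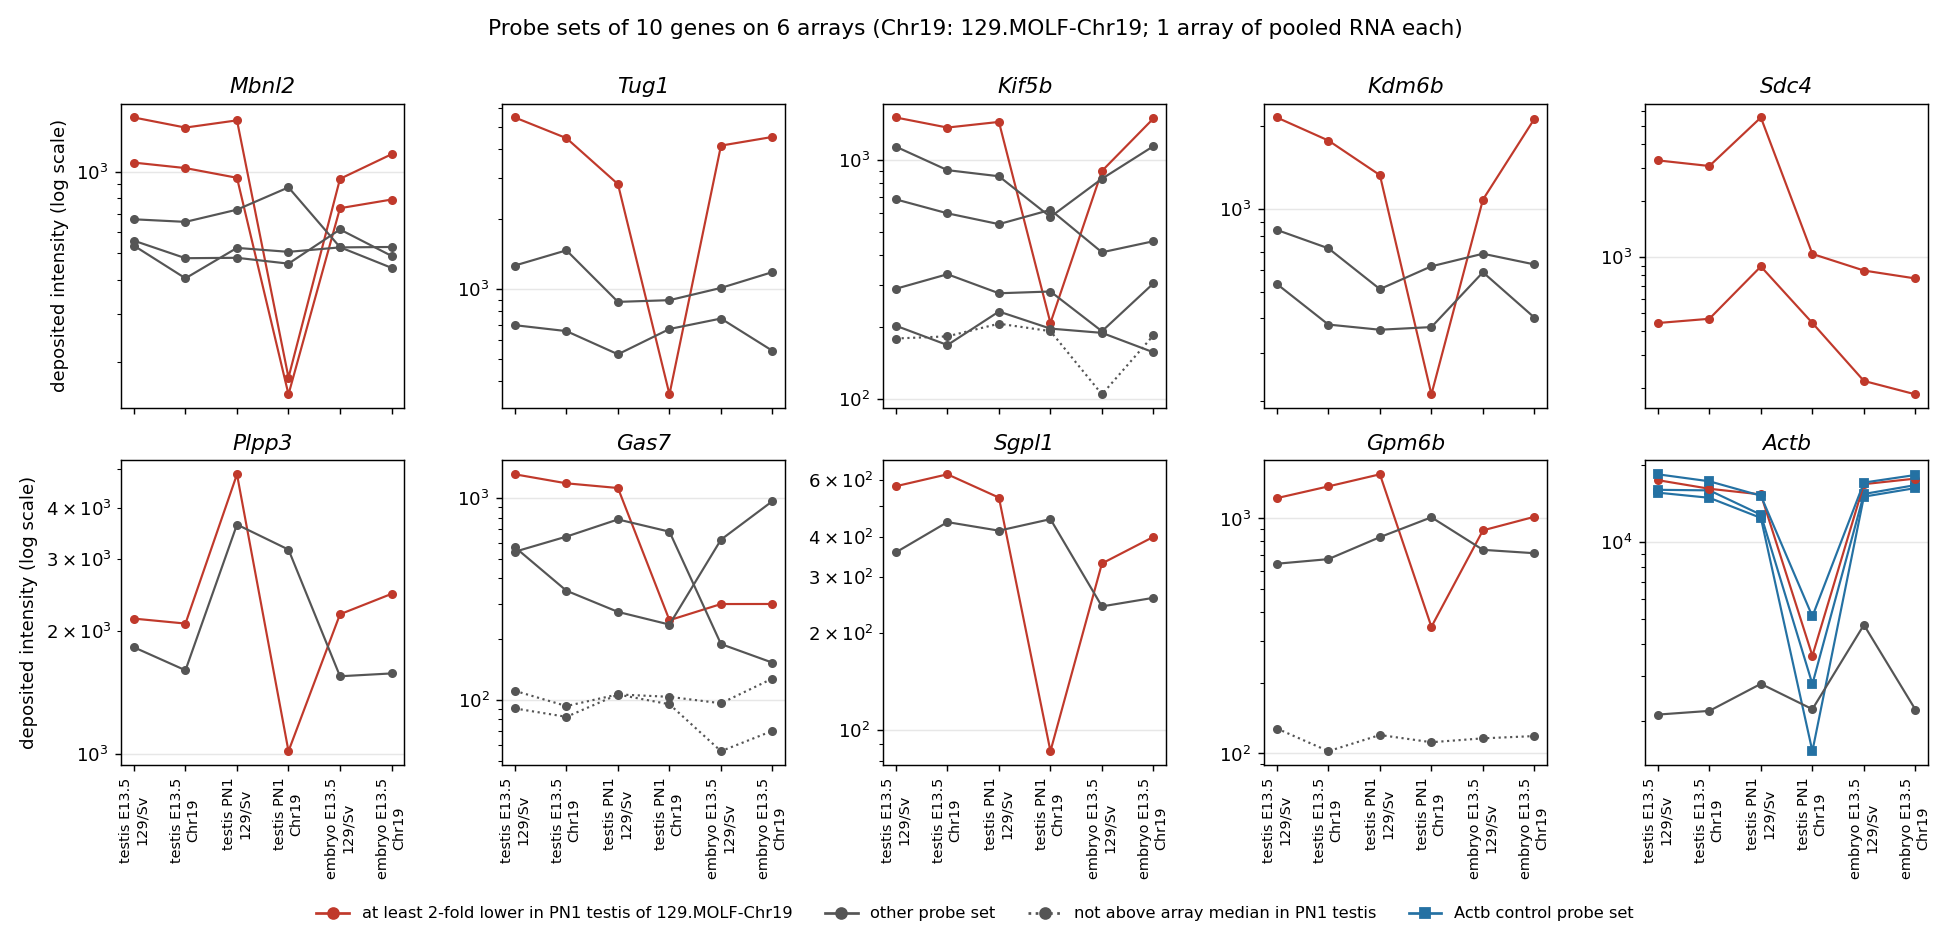
Deposited intensity (log scale) of each probe set of the 10 genes on the 6 arrays, 1 line per probe set. The 12 lower probe sets (red) drop on the PN1 array of 129.MOLF-Chr19, whereas the other probe sets of these genes (grey, dotted where not above the array median at PN1) lie on it within 0.57 (log2) of 129/Sv, and the 3 Actb control probe sets (blue squares) drop with the red Actb probe set.

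Mbnl2 encodes a muscleblind protein, which binds RNA and regulates alternative splicing in development. Its probe set 1455827_at read 1584 and 1454 in E13.5 testis of 129/Sv and 129.MOLF-Chr19, 1546 and 175 in PN1 testis, and 942 and 1160 in the embryo. A second, 1436858_at, read 1080 and 1031, 950 and 151, and 734 and 790 in the same order. On both, the PN1 array of 129.MOLF-Chr19 lay below the array median and far under the other 5 arrays, which spanned less than 2-fold, and the PN1 differences were −3.15 and −2.65. Both were designed from the same sequence record. Probe set 1433754_at read 725 and 876 in PN1 testis, 1457237_at 524 and 507, and 1457477_at 482 and 459. These 3 differed by 0.27, −0.05 and −0.07, and the mean over the 5 probe sets was −1.13.

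Tug1 is a long noncoding RNA that is transcribed in many tissues and is needed for male fertility in mice. Probe set 1456398_at read 5467 and 4455 in E13.5 testis, 2825 and 352 in PN1 testis, and 4138 and 4509 in the embryo. The PN1 array of 129.MOLF-Chr19 was lowest, and that of 129/Sv was the next lowest. The PN1 difference was −3.01, or 8.05-fold. Probe sets 1415708_at (879 and 894 in PN1 testis) and 1426771_at (523 and 672), which share a record that 1456398_at does not, differed by 0.02 and 0.36. On 1415708_at both PN1 pools were below the other 4 arrays, which read 1010 to 1466. The strains were level on it at PN1, and the mean over the 3 probe sets was −0.88.

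Kif5b encodes the heavy chain of kinesin-1, the motor that carries cargo outward along microtubules. Of its 6 probe sets, 5 were designed from 1 record and 1 of these, 1418430_at, was lower. It read 1508 and 1368 in E13.5 testis, 1445 and 207 in PN1 testis, and 900 and 1494 in the embryo, a PN1 difference of −2.80. The other probe sets of that record read 855 and 577 (1418427_at), 539 and 618 (1418428_at), 276 and 281 (1418429_at), and 206 and 192 (1418431_at) in the PN1 pair. Their differences were −0.57, 0.20, 0.02 and −0.11, the last not above the median in either pool. Thus 1 probe set of the record was 6.97-fold lower and 3 others that lay above the median differed by less than 1.5-fold. The sixth probe set, 1453524_at, differed by −0.24, and the mean over the 5 above the median was −0.68.

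Kdm6b encodes a demethylase that removes the repressive mark H3K27 methylation from histones. Probe set 1456610_at read 2155 and 1777 in E13.5 testis, 1329 and 212 in PN1 testis, and 1083 and 2133 in the embryo. It was thus 6.29-fold lower in 129.MOLF-Chr19 at PN1 (−2.65) and 2.09-fold higher in the embryo after scaling (1.07). On the values as deposited the embryo difference was 0.98, under 2-fold. Probe sets 1442643_at (364 and 372 in PN1 testis) and 1447612_x_at (511 and 619) differed by 0.03 and 0.27 at PN1, and by −0.46 and −0.04 in the embryo. No second probe set therefore shared the direction of 1456610_at past 2-fold in either tissue.

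Sdc4 encodes syndecan-4, a cell surface heparan sulfate proteoglycan that acts with integrins in cell adhesion. Both its probe sets, designed from 1 record, were lower at PN1. Probe set 1448793_a_at read 3284 and 3065 in E13.5 testis, 5567 and 1039 in PN1 testis, and 847 and 768 in the embryo. Probe set 1417654_at read 444 and 468, 890 and 444, and 218 and 184 in the same order. On both, PN1 testis of 129/Sv was the highest array and the embryos the lowest, and PN1 testis of 129.MOLF-Chr19 lay above both embryo pools. The PN1 differences were −2.42 and −1.01, which differ by 1.42 between probe sets. From E13.5 to PN1 the intensity in 129/Sv testis was higher by 0.83 and 1.07 (log2), whereas in 129.MOLF-Chr19 it was lower by 1.61 on 1448793_a_at and at −0.13 on 1417654_at. In the PN1 pair the gap between the highest and lowest probe set was smaller for Sdc4 than for the other 9 genes.

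Plpp3 encodes a membrane phosphatase that dephosphorylates lipid phosphates such as lysophosphatidic acid and sphingosine 1-phosphate outside the cell. Probe set 1448908_at read 2148 and 2088 in E13.5 testis, 4840 and 1018 in PN1 testis, and 2201 and 2468 in the embryo, a PN1 difference of −2.25. Probe set 1429514_at read 1827 and 1605, 3647 and 3168, and 1552 and 1577. On this probe set both PN1 pools were above the other 4 arrays and differed by −0.21. On 1448908_at PN1 testis was the highest array in 129/Sv and the lowest in 129.MOLF-Chr19, so the probe sets give opposite changes with age in the consomic strain.

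Gas7, a growth arrest gene, encodes a protein that binds actin and membranes. Probe set 1442019_at read 1310 and 1182 in E13.5 testis, 1120 and 248 in PN1 testis, and 298 and 299 in the embryo, and the PN1 difference was −2.18. The consomic PN1 testis was thus near the embryo level on this probe set. Probe set 1457270_at read 542 and 644, 783 and 681, and 189 and 153, and it kept the testis above the embryo in both strains at PN1, with a difference of −0.20. Probe set 1431400_a_at read 570 and 347, 273 and 236, and 622 and 965, and differed by −0.21. The remaining 2, 1417859_at and 1445685_at, were not above the median on the PN1 arrays.

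Sgpl1 encodes sphingosine-1-phosphate lyase, the enzyme that irreversibly degrades sphingosine 1-phosphate. Probe set 1415893_at read 575 and 626 in E13.5 testis, 529 and 85.7 in PN1 testis, and 330 and 399 in the embryo. The PN1 value of 129.MOLF-Chr19 was at the floor, so the level was at least 4.62-fold lower. The other probe set of the same record, 1415892_at, read 418 and 454 in PN1 testis and differed by 0.12. The lower probe set of Sgpl1 thus lay at the floor in consomic PN1 testis while the other probe set of the same record read close to its pair.

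Gpm6b encodes a membrane proteolipid of the family of the myelin proteolipid protein. Probe set 1425942_a_at read 1220 and 1369 in E13.5 testis, 1541 and 346 in PN1 testis, and 890 and 1017 in the embryo, a PN1 difference of −2.16. Probe set 1423091_a_at read 833 and 1012 in PN1 testis, a difference of 0.28, and the consomic PN1 pool was its highest array. Probe set 1453514_at read 102 to 128 on the 6 arrays and was not above the median on the PN1 arrays.

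Actb encodes cytoplasmic beta-actin and is widely used as a reference of constant level. Probe set 1436722_a_at read 17498 and 16189 in E13.5 testis, 15386 and 3586 in PN1 testis, and 16876 and 17742 in the embryo, so that 5 arrays lay within 0.16 (log2) of each other and the consomic PN1 array was 4.30-fold under its pair. The highest intensity of any probe set that is not a control was 18300 to 23930 per array, so these readings lay near the top of the range, where differences and ratios may be compressed; this was not tested. The 3 control probe sets of Actb were lower there as well, by 2.98-fold at the 3 prime end (15203 and 5118), 8.22-fold in the middle (12444 and 1517) and 4.62-fold at the 5 prime end (12811 and 2778). Probe set 1419734_at read 2785 and 2215 in PN1 testis and differed by −0.33. Its highest array was the 129/Sv embryo (4739 against 2206 in 129.MOLF-Chr19), a difference of −1.02 that 1436722_a_at (0.16) did not share. The 129/Sv embryo array also had the highest mean of hybridization controls, 6252 against 4026 to 5275 on the other 5, and the part of this in the embryo values was not tested. Actg1, the other cytoplasmic actin, differed by 0.03 on its probe set in PN1 testis.

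**Figure D2:**
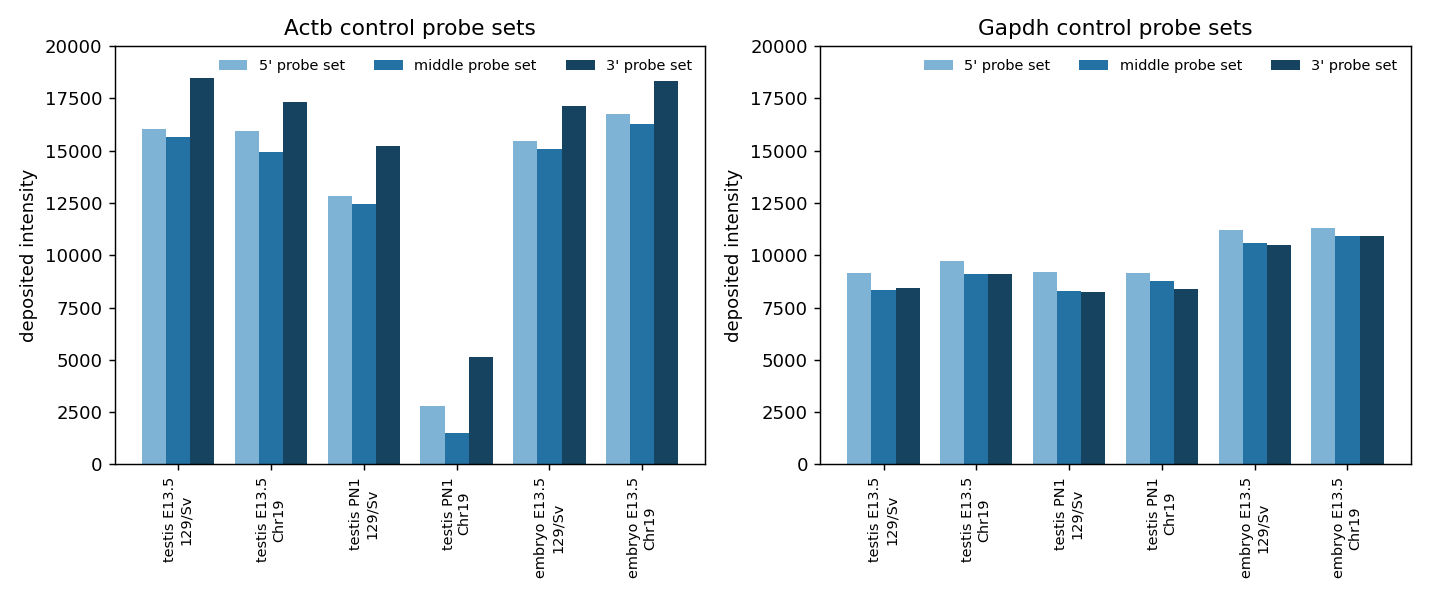
Deposited intensity of the 5 prime, middle and 3 prime control probe sets of Actb and Gapdh on the 6 arrays, with 1 bar per probe set and array. The Actb bars of the PN1 array of 129.MOLF-Chr19 lie at 1517 to 5118 and those of the other 5 arrays at 12444 to 18444, whereas the Gapdh bars of that array lie at 8379 to 9151.

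The ratios between the Actb controls also differed on that array, while their order was the same on all 6. The ratio of 3 prime to 5 prime signal was 1.84 there and 1.09 to 1.19 on the other 5 arrays, and the ratio of 3 prime to middle signal was 3.37 there and 1.13 to 1.22 elsewhere. For Gapdh, the glycolytic enzyme used as a second control, the ratios were 0.916 and 0.954, beside 0.895 to 0.966 and 0.991 to 1.01 on the other 5 arrays. The transferrin receptor control (Tfrc) had a 3 prime to middle ratio of 1.92, below the 2.05 to 2.85 of the other arrays, and its 5 prime probe set was under the floor in both PN1 pools. The pyruvate carboxylase control (Pcx) had ratios of 2.75 and 3.80, above the 1.68 to 2.28 and 2.33 to 3.54 elsewhere. The 18S ribosomal control had a 3 prime to 5 prime ratio of 3.04, beside 2.87 in PN1 testis of 129/Sv. The other 5 arrays ran from 1.38, in the 129/Sv embryo, to 2.93, so the highest of them was close to it. The 18S middle probe set read 78.6 on the consomic PN1 array, under the floor, so no ratio to it is given. The part of RNA integrity in the lower probe sets was not tested.

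The consomic PN1 array was the lowest of the 6 on 10 of the 12 lower probe sets, and at least 2-fold below each other array on 8. The exceptions to the 2-fold gap were both Sdc4 probe sets, which lay above the embryos, Gas7 1442019_at and Plpp3 1448908_at. Over the 21373 probe sets with 1 symbol that were above the median on at least 2 arrays, the consomic PN1 array lay at least 2-fold under each of the other 5 on 174, or 0.814%. PN1 testis of 129/Sv did so on 7 and each of the other 4 arrays on 0. In the other direction the 6 arrays each stood at least 2-fold above the rest on 0 to 9 probe sets. The genes were chosen on this array, and the pattern is not independent of that choice.

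**Figure D3:**
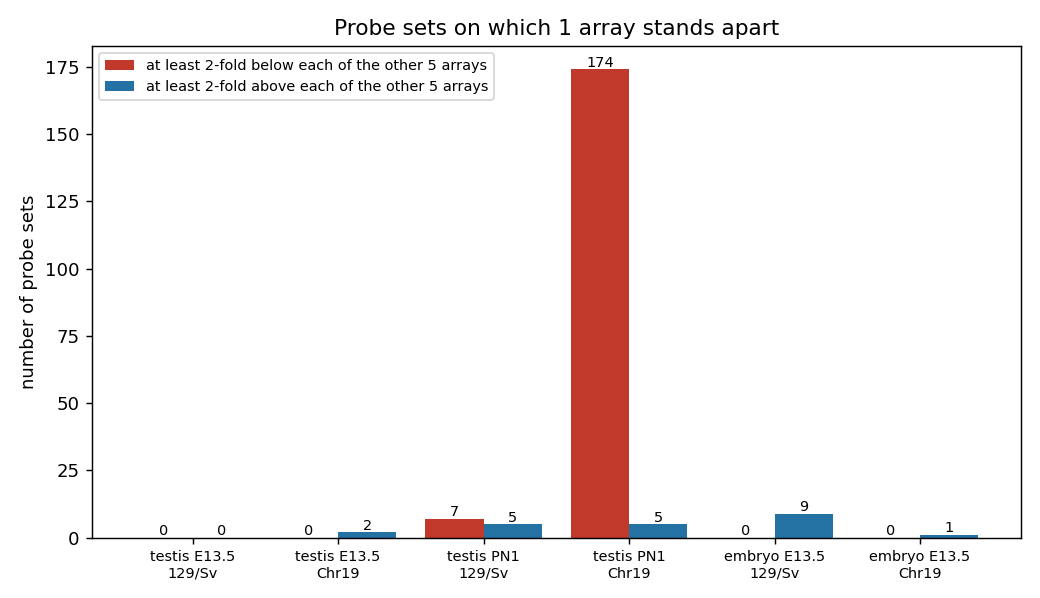
Number of probe sets (of 21373) on which an array lay at least 2-fold below (red) or above (blue) each of the other 5 arrays. The PN1 array of 129.MOLF-Chr19 has 174 below and 5 above, and no other array has more than 7 below or 9 above.

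The same division was counted over all genes with several probe sets, the 10 genes included. In the PN1 pair 297 of the 4988 such genes had at least 1 probe set at least 2-fold lower in 129.MOLF-Chr19, and 2 of the 297 (0.673%) had all of them lower, among them Sdc4. In the higher direction 18 genes had at least 1 probe set past 2-fold and 6 of the 18 (33.3%) had all. In the E13.5 testis pair 8 genes (0.158%) had a lower probe set, and in the embryo pair 36 (0.723%), none of them with all probe sets lower. In the higher direction these pairs had 13 and 7 genes, none of them with all probe sets higher. The gap between the highest and the lowest strain difference of a gene had a median of 0.30 (log2) at PN1 over all genes, 0.28 in E13.5 testis and 0.31 in the embryo. For the 10 genes it was 1.42 (Sdc4) to 3.42 (Mbnl2) at PN1, where the choice set it. In E13.5 testis it was 0.10 to 0.96 with a median of 0.23, and in the embryo, over the 9 genes with several probe sets above the median, 0.14 to 1.53 with a median of 0.62.

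Outside the PN1 pair the lower probe sets did not differ by strain in the same way. In E13.5 testis they ran from −0.18 to 0.28 (median 0.01, 7 of 12 positive), and none passed 2-fold, where 0.0631% of all probe sets were 2-fold lower and 0.0874% higher. In the embryo, where 1417654_at of Sdc4 was not above the median, they ran from −0.15 to 1.07 (median 0.23, 10 of 12 positive), and none was 2-fold lower, against 0.278% of all. Kdm6b 1456610_at was the 1 that was 2-fold higher there, against 0.0585% of all, and it was not on the values as deposited (0.98). The array medians before scaling differed by −0.12 (log2) between the strains in E13.5 testis and by −0.09 in the embryo, and scaling made the medians equal. Over all probe sets compared, the median difference after scaling was 0.09 in E13.5 testis and 0.05 in the embryo. The counts of positive values above are therefore not to be read against an even split.

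**Figure D4:**
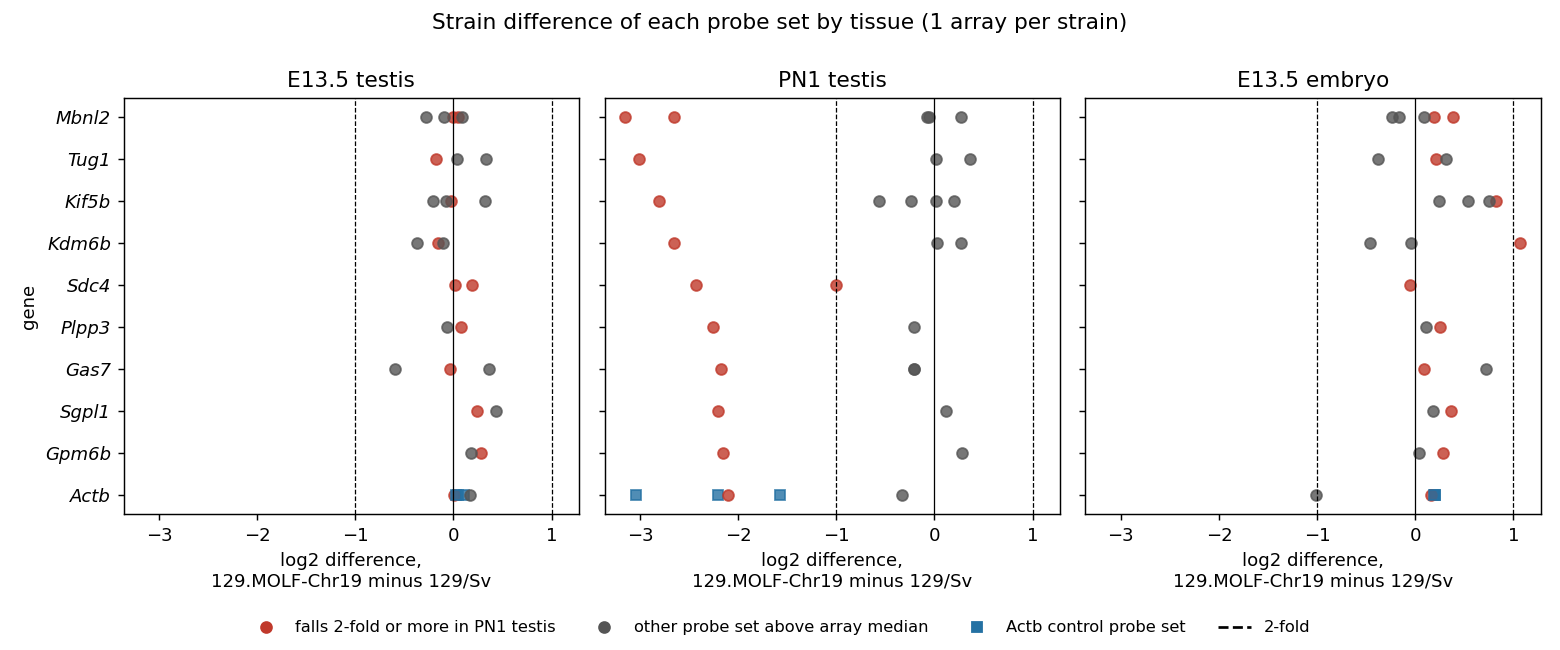
Strain difference (log2, 129.MOLF-Chr19 minus 129/Sv) of each probe set above the array median, by gene and tissue, with dashed lines at 2-fold and Actb control probe sets as blue squares. The 12 lower probe sets (red) lie between −3.15 and −1.01 in PN1 testis and between −0.18 and 1.07 in E13.5 testis and the embryo.

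The strain difference was tested on the 4 E13.5 arrays, which played no part in choosing the genes, with limma over 23624 probe sets and tissue as a block. This asks whether the strains differ in the same direction in testis and embryo. 28 of the 33 probe sets of the 10 genes entered, all 12 lower ones among them. None passed an adjusted p of 0.05, and 8 had an unadjusted p under 0.05, with limma's trend and also without it, where 4483 and 4365 of all 23624 probe sets had one. Over all probe sets, 0.106% were called higher and 0.0677% lower in 129.MOLF-Chr19. The lower probe sets had a median of 0.14 against 0.05 for all probe sets, and their lowest adjusted p was 0.217. The smallest adjusted p of the 28 belonged to Kif5b 1418429_at, a probe set level at PN1, which was at 0.54 (SE 0.15, n = 2 arrays per strain, limma adjusted p 0.0974). With 1 residual degree of freedom the error of each probe set rests mostly on limma's pooled estimate, and a miss of the threshold does not show that the strains were alike.

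E13.5 testis was compared with the E13.5 embryo in the same fit, with strain as the block, to describe where these genes are expressed. The E13.5 arrays did not choose the genes. Each gene was however chosen for a probe set with signal in PN1 testis, so its level in testis is not independent of the choice. Of the 28 probe sets 13 were higher in testis and 2 lower (limma adjusted p under 0.05), and over all probe sets 22.6% were higher and 7.36% lower. Sdc4 1417654_at and Gas7 1457270_at were above the median in the testis arrays alone, so they entered the fit through the tissue where they were high. They are given as values without a test, which leaves 11 of 26 higher. Over all probe sets, 721 of the 5334 higher ones had entered in that way and 491 of the 1739 lower ones through the embryo arrays alone. Sdc4 1448793_a_at was higher in testis by 2.06 (log2, SE 0.14, n = 2 arrays per tissue, limma adjusted p 3.6e-10), and 1417654_at was at 1.27 (SE 0.14). Sgpl1 was higher on both, by 0.81 and 0.76 (SE 0.14 each), with limma adjusted p 0.00012 and 0.00029, so that both the lower and the level probe set of the PN1 pair were higher in testis at E13.5.

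Gas7 was higher in testis on 1442019_at by 2.14 (SE 0.14, n = 2 per tissue, limma adjusted p 3.1e-10) and 1457270_at was at 1.88 (SE 0.15). On 1431400_a_at it was lower, at −0.72 (SE 0.20, limma adjusted p 0.011), a call that robust estimation did not keep. Mbnl2 was higher on 3 of 5 probe sets, the 2 lower ones at 0.62 and 0.55 and 1433754_at at 0.54 (SE 0.14 to 0.15, limma adjusted p 0.0031 to 0.0069), while the other 2 were at 0.00 and −0.10. Kif5b was higher on 1418428_at (0.65) and 1418429_at (0.44), and 1418430_at was at 0.39 (SE 0.17, limma adjusted p 0.091). In both Mbnl2 and Kif5b at least 1 probe set that was level at PN1 was called higher in testis at E13.5.

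In the remaining genes the calls were fewer. Tug1 was called higher on 1415708_at alone (0.40, SE 0.14, limma adjusted p 0.040), and its lower probe set was at 0.28 (adjusted p 0.067). Gpm6b 1425942_a_at was higher by 0.53 (limma adjusted p 0.0083), whereas 1423091_a_at was at −0.06 (adjusted p 0.81). Kdm6b and Plpp3 had no probe set past the threshold, with values from −0.06 to 0.45. Actb 1436722_a_at was at 0.04 (SE 0.06, limma adjusted p 0.63) and 1419734_at was lower, at −0.51 (adjusted p 0.038), a call that was lost without trend or with robust estimation. With quantile normalization, which put 55.9% of all calls in the higher direction against 75.4% here, Gpm6b 1425942_a_at, Mbnl2 1436858_at and Tug1 1415708_at did not pass. With the values as deposited the share was 61.9%.

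**Figure D5:**
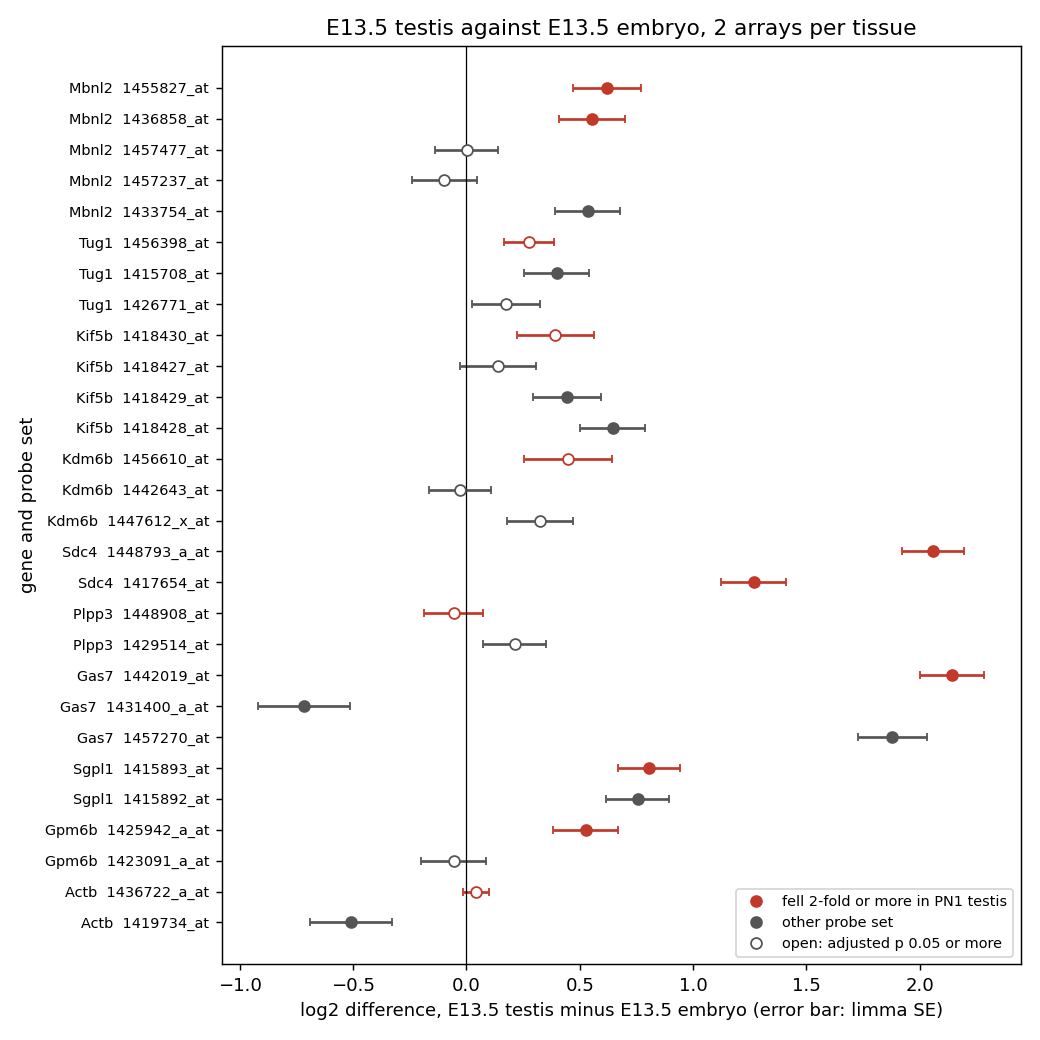
E13.5 testis minus E13.5 embryo (log2, limma estimate with SE, 2 arrays per tissue) for the 28 tested probe sets of the 10 genes, filled where the adjusted p was under 0.05; Sdc4 1417654_at and Gas7 1457270_at entered through the testis arrays alone. Gas7 and Sdc4 reach 2.14 and 2.06, and the red probe sets, which were lower in consomic PN1 testis, lie between −0.06 and 2.14.

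Genes related to the 10 by family or function were read from lists of 41 genes, 34 of them above the median at PN1 on 79 probe sets. Of the 79, 5 were at least 2-fold lower in 129.MOLF-Chr19 and none higher, with a median of −0.07 against 0.03 for all probe sets, of which 1.81% were 2-fold lower. Among splicing regulators Rbfox2 had 1 probe set at −1.98 (607 and 155 in PN1 testis) and a second at −0.04, and Celf1 had 1 at −1.10 and 4 between −0.68 and 0.10. Klc1, a light chain of kinesin-1, had 1 at −1.58 (347 and 116) and a second at −0.06. Meg3, an imprinted long noncoding RNA, had 1 of 9 at −1.54. In these 4 genes 1 probe set was past 2-fold and the others were not. Acta1, skeletal muscle actin, was at −1.15 on its single probe set. The syndecans, the lists of H3K27 methylation and of lipid phosphatases and sphingolipid turnover had no probe set past 2-fold, of 9, 11 and 14. Snhg1, a host gene of small nucleolar RNAs, had 2 probe sets past 2-fold in E13.5 testis, at −1.03 and −1.15. Neither was above the median at PN1 or in the embryo, but both read lower in 129.MOLF-Chr19 there too. The probe set at −1.03 read 222 and 89.9 in PN1 testis and 181 and 68.7 in the embryo. That at −1.15 read 178 and 25.2, and 126 and 31.9, and these consomic readings were under the floor. Another Snhg1 probe set was at −0.72 in E13.5 testis, −0.54 in PN1 testis and −0.67 in the embryo. The remaining ones ran from −0.34 to 0.04. The chromosomes of the listed relatives are not given here, and the part of MOLF sequence in the Snhg1 readings was not tested. No probe set of these lists that entered the strain fit of the 4 E13.5 arrays was called. The 2 Snhg1 probe sets past 2-fold did not enter it. The Snhg1 probe set at −0.72 in E13.5 testis was at −0.69 in the fit (SE 0.14, limma adjusted p 0.052). In the tissue fit, 21 of 86 tested were higher in testis and 20 lower (limma adjusted p under 0.05), where 22.6% and 7.36% of all probe sets were. Both counts include probe sets that were above the median in 1 tissue alone and entered the fit through the tissue where they were high. They are a description, and nothing is read from their distance to the shares of all probe sets.

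The probe sets of other genes whose profile over the 6 arrays lay nearest to the median profile of the 12 lower probe sets were those of Srrm2, Pdgfra, Rbbp4, Klf13 and Nfia, at a root mean square distance of 0.13 to 0.16 (log2) among 21345. The likeness was computed on the arrays that chose the profile and over 6 arrays only. Their PN1 differences were −2.08 to −2.21. Srrm2, a splicing factor gene, read 3364 and 796 in PN1 testis on the near probe set, and its other probe set above the median was at −0.30. Pdgfra, a growth factor receptor gene of mesenchymal cells, read 1060 and 231 against −0.12 and 0.42 on its other probe sets. Klf13 had others at −0.18 and −0.08, and Nfia 5 others from −0.94 to −0.07. Rbbp4, a histone-binding protein gene, had a second probe set at −3.05 and another at −0.18. Of the members, Sgpl1 lay nearest to the median profile (0.10) and Sdc4 1417654_at farthest (1.06).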

How the data were processed

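The deposited values are probe set intensities on a linear scale, and how the authors summarised the probes is not given in the sources used here. Of 45101 probe sets, 34958 had 1 gene symbol, 932 several and 9211 none in the platform annotation, with symbols updated through RefSeq (GRCm38.p6). Each array was scaled to a common median over probe sets other than the 64 controls, raised to a common floor (the mean 25th percentile) and log2 transformed. Probe sets were compared in a tissue where either array lay above the median, and counted at 2-fold. limma 3.58.1 (R 4.3.3) was run on the 4 E13.5 arrays with strain and tissue as terms, trended eBayes and Benjamini-Hochberg adjustment at 0.05, for probe sets above the median on at least 2 of them. The fit was tested on simulated data. p-values are two-sided. The text names the probe sets of the 10 genes, the control probe sets, listed relatives past 2-fold and the 5 nearest profiles; Tfrc, Pcx, 18S, Actg1 and Snhg1 were added after their values were seen. The genes and lists were chosen with earlier results of these data known. Alternatives changed scaling, floor, filter, fold, eBayes options and the block. The number of arrays limits precision. Python 3.11.15, pandas 2.3.3 and matplotlib 3.10.9 were used.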

Additional observations from a re-analysis of the deposited data

Results flagged for a closer look

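Kdm6b 1456610_at was 1.07 (log2) higher in 129.MOLF-Chr19 in the E13.5 embryo and 2.65 lower in PN1 testis. On the values as deposited the embryo difference was 0.98, under 2-fold. It stood out because the strains moved in opposite directions in these tissues; the difference between the tissues was not tested, since each group has 1 array. Its other probe sets were at −0.46 and −0.04 in the embryo and at 0.03 and 0.27 in PN1 testis.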

How the results depend on the processing

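The 12 lower probe sets stayed past 2-fold in PN1 testis under each scaling, floor and filter tried, and 11 stayed past 3-fold. Averaging over a gene's probe sets left Mbnl2, Sdc4, Plpp3, Sgpl1 and Actb past 2-fold, and not Tug1 (−0.88), Kif5b (−0.68), Kdm6b (−0.78), Gas7 (−0.86) or Gpm6b (−0.94). The cause was not tested where a count moved. Probe sets past the fold threshold went, in PN1 testis, from 372 lower and 44 higher to 943 and 283 at 1.5-fold and 107 and 17 at 3-fold, with 245 lower under the 75th percentile filter. In E13.5 testis they went from 13 lower and 18 higher to 115 and 572 at 1.5-fold and 3 and 1 at 3-fold, with 7 higher on deposited values, 6 higher after quantile normalization, 6 lower with the floor at the 40th percentile and 4 lower under the 75th percentile filter. In the embryo they went from 57 and 12 to 422 and 387, and to 8 and 0, with 7 higher on deposited values. Calls of the strain fit (limma, 25 higher and 16 lower) were 10 and 34 on deposited values, 43 lower after quantile normalization, 41 higher with a floor per array, 217 and 61 under the 75th percentile filter, and 0 and 0 without the filter (3678 at an unadjusted p under 0.05) or without the block (301). The share called higher was 61.0%, and 22.7% on deposited values and 44.2% after quantile normalization. Actb 1436722_a_at turned from 0.08 to −0.020 on deposited values and −0.0077 after quantile normalization, and was not called. No probe set of the 10 genes was called for strain under any alternative of the fit. Tissue calls (5334 higher and 1739 lower) were 3218 and 952 without the block, 3047 lower after quantile normalization, 1012 lower under the 75th percentile filter and 0 and 0 without the filter (8331 at an unadjusted p under 0.05). Of the 10 genes' probe sets, 13 were higher and 2 lower, 8 and 0 without the block, 0 and 0 without the filter, with 1 lower without trend and 0 lower with robust estimation. The embryo difference of Kdm6b 1456610_at went from 1.07 to 0.98 on deposited values, under 2-fold. The labels give no replicate numbers to pair by, and the tissue block is what sets the strains side by side within a tissue. Leaving out an array leaves the blocked fit no residual degree of freedom.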
